A study of Homo sapiens with 6 samples.

Results

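The genes described here are 10 that encode surface proteins of plasma cells, most of them targets of antibodies or engineered T cells in multiple myeloma: CD38, SDC1, SLAMF7, GPRC5D, FCRL5, TNFRSF17, TNFRSF13B, CD27, CD28 and CD44. They were chosen by name, with earlier results of these data known. Each was read from the 1 probe set (the group of probes that measures a transcript) whose only annotated gene symbol is that gene. All 10 were found among the 18417 genes with such a probe set. The cells were RPMI 8226, an established human line grown from the malignant plasma cells of multiple myeloma. One group of 3 arrays came from cells given 6 Gy of carbon ions, charged particles that ionise densely where they pass, and the other group of 3 from cells given 0 Gy. RNA was extracted 1 day after irradiation from both groups. The cells grew alone in serum-supplemented medium, and both groups are of 1 cell line. The labels do not say whether the 3 samples of a group were separate cultures, so the p-values cover only the spread among the samples given, and that spread may be technical.

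Plasma cells lose most surface molecules of the B cell and gain a small set of others. CD38, an enzyme that breaks down NAD outside the cell, and syndecan-1 (SDC1), a carrier of heparan sulphate chains, define them in diagnosis. The receptors BCMA (TNFRSF17) and TACI (TNFRSF13B) bind the growth factors APRIL and BAFF and sustain plasma cells in the bone marrow. Daratumumab and isatuximab bind CD38, elotuzumab binds SLAMF7, talquetamab binds GPRC5D, and BCMA is the target of approved engineered T cells. The comparison asks how the mRNA of these targets differed between irradiated and unirradiated myeloma cells.

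The surface genes went both ways. CD38, GPRC5D and CD28 fell after irradiation, SLAMF7 and CD44 rose, and SDC1, TNFRSF17, TNFRSF13B, FCRL5 and CD27 did not pass the test. "Rose" and "fell" are used only where the adjusted p was under 0.05 in limma, fitted on the deposited log2 values of all 18417 genes. Thus 5 of the 10 genes passed, 2 higher and 3 lower, where 14.5% of all genes passed, 6.35% higher and 8.18% lower. The split over all genes moved with the scaling: 1169 were higher and 1507 lower as deposited, 1431 and 1369 after quantile normalization, and 976 and 1908 with array medians subtracted. The 10 genes kept 2 higher and 3 lower under each of these. The median log2 difference, 6 Gy minus 0 Gy, was 0.10 over the 10 genes and 0.04 over all genes. That of the 10 was 0.06 without irradiated replicate 1 or without irradiated replicate 2, and it was -0.22 over the 7 genes that remained when the 6139 dimmest of all genes were left out. The arrays measure RNA pooled over the cells, so fewer cells with a transcript and less transcript per cell cannot be told apart.

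**Figure D1:**
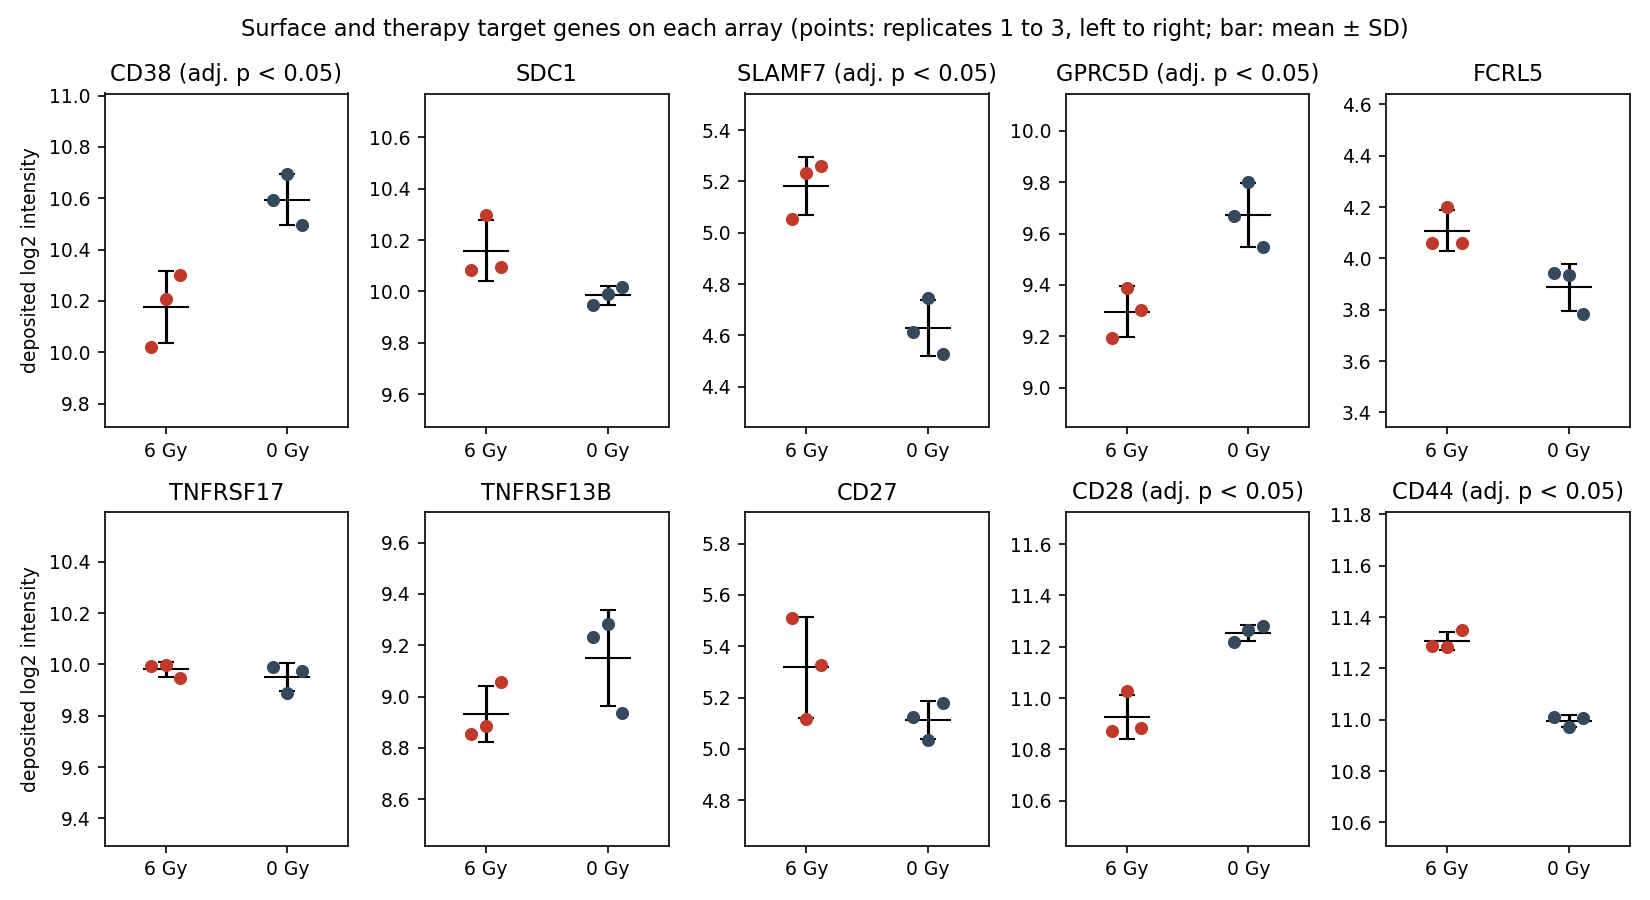
Deposited log2 intensity of each of the 10 genes on the 3 arrays at 6 Gy (red, left) and the 3 at 0 Gy (blue, right); horizontal lines are means and error bars are SDs over 3 arrays. Each panel spans the same range of log2 units around its own centre; the groups stand apart for 7 of the genes, and levels of different genes are not to be compared.

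CD38 (probe set 8094240) fell to about 74.8% of its unirradiated level. Its log2 intensity was 10.02, 10.21 and 10.30 in irradiated replicates 1 to 3, against 10.59, 10.69 and 10.50 in unirradiated replicates 1 to 3. The highest irradiated value lay 0.20 below the lowest unirradiated value, and irradiated replicate 1 was the lowest of all. The log2 difference was -0.42 ± 0.09 (SE), with a limma adjusted p of 0.0127. A 95% interval of the fold, not adjusted for the number of genes, ran from 0.652 to 0.858. The call ended without unirradiated replicate 2 (adjusted p 0.0550, with a difference of -0.37).

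GPRC5D (probe set 7961386), an orphan member of the G protein-coupled receptors, fell to about 76.9% of its unirradiated level. The irradiated arrays read 9.19, 9.39 and 9.30 and the unirradiated arrays 9.67, 9.80 and 9.55 on the log2 scale. The groups did not overlap, and irradiated replicate 1 was again the lowest array. GPRC5D differed by -0.38 ± 0.09 (SE) on the log2 scale, with a limma adjusted p of 0.0171. The call was lost without irradiated replicate 1 (adjusted p 0.0574), unirradiated replicate 1 (0.0557) or unirradiated replicate 2 (0.0690).

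CD28 (probe set 8047677) is best known as the costimulatory receptor of T cells, and it is also carried by many myeloma cells. It fell to about 79.7% of its unirradiated level. Irradiated replicates 1 to 3 read 10.87, 11.03 and 10.88, and unirradiated replicates 1 to 3 read 11.22, 11.26 and 11.28 on the log2 scale. The unirradiated values spread little (SD 0.03, n = 3) and all stood above the irradiated ones (SD 0.09, n = 3). CD28 thus differed by -0.33 ± 0.07 (SE) on the log2 scale, with a limma adjusted p of 0.0141. The call ended without irradiated replicate 1 (adjusted p 0.0504) or unirradiated replicate 2 (0.0532).

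SLAMF7 (probe set 7906613), a self-binding receptor of the SLAM family found on plasma cells and NK cells, rose, with a signal 1.47-fold that of unirradiated cells and the largest log2 difference of the 10 genes. A 95% interval of this ratio, not adjusted for the number of genes, ran from 1.29 to 1.67. Its log2 intensity was 5.05, 5.23 and 5.26 in irradiated replicates 1 to 3, against 4.61, 4.75 and 4.53 in unirradiated replicates 1 to 3. The lowest irradiated value lay 0.31 above the highest unirradiated value. The log2 difference was 0.55 ± 0.08 (SE), with a limma adjusted p of 0.00271, and 0.711% of all genes had a difference at least as high. The call held in all 13 alternative settings that gave a value, with adjusted p between 0.00168 and 0.0142. The unirradiated values were dim and are not shown to stand above background, so the ratio of signals sets no upper limit on the change in RNA.

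CD44 (probe set 7939341), the receptor for hyaluronan in the matrix, rose 1.24-fold. The irradiated arrays read 11.29, 11.28 and 11.35 and the unirradiated arrays 11.01, 10.97 and 11.01 on the log2 scale. Both groups were narrow, with an SD of 0.04 at 6 Gy and 0.02 at 0 Gy (n = 3 each), and a gap of 0.27 lay between them. CD44 differed by 0.31 ± 0.06 (SE) on the log2 scale, with a limma adjusted p of 0.0113. The call held in all 14 alternative settings at the threshold of 0.05, with adjusted p up to 0.0493, and CD44 did not pass at 0.01. CD44 is made in many splice forms, which a single probe set value does not separate.

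The start regions of the changed genes are shown because they are the sequences in front of the transcripts that moved. The RefSeq promoter table (GRCh38.p14) held windows of 250 bases before to 50 after the gene start for 8 of the 10 genes, all except SLAMF7 and TNFRSF17. The windows lie at chr4:15778078-15778377 (plus strand) for CD38, chr12:12952121-12952420 (minus strand) for GPRC5D, chr2:203706389-203706688 (plus strand) for CD28 and chr11:35138921-35139220 (plus strand) for CD44. Each is given in the direction of transcription, and capitals mark matches to the motifs named after them.
CD38: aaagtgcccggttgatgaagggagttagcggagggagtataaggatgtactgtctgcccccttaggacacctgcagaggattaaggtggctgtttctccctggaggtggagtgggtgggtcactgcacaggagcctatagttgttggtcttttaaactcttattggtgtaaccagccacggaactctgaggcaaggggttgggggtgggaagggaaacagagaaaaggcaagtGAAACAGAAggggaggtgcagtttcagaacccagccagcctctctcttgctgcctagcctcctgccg
GPRC5D: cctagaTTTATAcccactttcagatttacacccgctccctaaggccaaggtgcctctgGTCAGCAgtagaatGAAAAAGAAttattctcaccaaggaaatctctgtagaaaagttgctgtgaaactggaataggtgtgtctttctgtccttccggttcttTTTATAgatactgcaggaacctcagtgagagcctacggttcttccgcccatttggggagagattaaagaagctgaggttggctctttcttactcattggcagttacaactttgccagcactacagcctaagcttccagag
CD28: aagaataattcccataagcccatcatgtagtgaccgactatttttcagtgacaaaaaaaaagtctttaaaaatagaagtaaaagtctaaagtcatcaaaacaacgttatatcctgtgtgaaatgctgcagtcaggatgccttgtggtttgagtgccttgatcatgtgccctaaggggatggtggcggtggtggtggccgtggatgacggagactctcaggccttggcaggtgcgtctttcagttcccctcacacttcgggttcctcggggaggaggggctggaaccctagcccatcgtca
CD44: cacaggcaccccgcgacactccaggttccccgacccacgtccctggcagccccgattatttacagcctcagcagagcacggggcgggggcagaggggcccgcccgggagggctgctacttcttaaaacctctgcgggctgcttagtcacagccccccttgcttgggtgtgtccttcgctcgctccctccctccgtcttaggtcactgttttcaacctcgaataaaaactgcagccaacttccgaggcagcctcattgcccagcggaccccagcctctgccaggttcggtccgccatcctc

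These windows were searched on both strands for 8 short motifs, with N standing for any base, and the share of all 35116 windows in the table that hold each motif is given beside it. They were TATAAA (the TATA box, 11.5%), CACGTG (the E-box of MYC, 7.26%), TGACTCA (AP-1, 4.95%), GGANTTTCC (most of the NF-kappaB site, 1.64%) and TTCNNNGAA (STAT, 7.66%). The others were GAAANNGAA (most of the interferon response element, 8.11%), TGCTGAC (part of the MAF site, 4.19%) and TGATGNAA (the composite site of ATF4, 3.62%). The window of CD38 held GAAANNGAA starting at base -17 from the gene start. That of GPRC5D held GAAANNGAA at base -178, the reverse complement of TATAAA at bases -244 and -90, and the reverse complement of TGCTGAC at base -192, with no overlap between them. No match was found in the windows of CD28 and CD44, nor in those of SDC1, FCRL5, TNFRSF13B and CD27. The GC content was 54% for CD38, 45% for GPRC5D and 48.3% for CD28, against 63.3% for CD44; the median over all windows was 58.7%. A match is a run of letters, and the windows without one lack only these letters.

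Among the receptors of the tumour necrosis factor family, TNFRSF17 (BCMA, probe set 7993267) had nearly equal values in both groups. Its log2 intensity was 9.99, 10.00 and 9.95 in irradiated replicates 1 to 3 and 9.99, 9.89 and 9.97 in unirradiated replicates 1 to 3. The groups overlapped, and the log2 difference was 0.03 ± 0.07 (SE; limma adjusted p 0.803). Its 95% interval, not adjusted for the number of genes, allows a fold between 0.921 and 1.13. TNFRSF13B (TACI, probe set 8013061), which binds the same ligands, read 8.86, 8.89 and 9.06 in irradiated cells against 9.23, 9.28 and 8.94 in unirradiated cells. Unirradiated replicate 3 lay inside the irradiated range, and the log2 difference of -0.22 ± 0.10 (SE) did not pass (limma adjusted p 0.185). The interval for TNFRSF13B allows a fold between 0.736 and 1.01. Without unirradiated replicate 3 its difference was -0.32, with an adjusted p of 0.0516.

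CD27 (probe set 7953333), the receptor for CD70 and a marker that many myeloma cells lose, was dim. It read 5.51, 5.12 and 5.33 in irradiated cells against 5.13, 5.03 and 5.18 in unirradiated cells on the log2 scale. The groups overlapped, and the log2 difference of 0.20 ± 0.10 (SE) did not pass (limma adjusted p 0.201). Its value ran from 0.11 without irradiated replicate 1 to 0.31 without irradiated replicate 2.

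SDC1 (probe set 8050557) read 10.09, 10.30 and 10.10 in irradiated cells against 9.95, 9.99 and 10.02 in unirradiated cells on the log2 scale. All irradiated values lay above the unirradiated ones, by 0.07 at the closest, and irradiated replicate 2 stood above the other irradiated arrays. The log2 difference was 0.17 ± 0.08 (SE) and did not pass (limma adjusted p 0.162), and it was 0.11 without irradiated replicate 2 (0.397). FCRL5 (probe set 7921237), a receptor for IgG of the Fc receptor-like family and a target of the bispecific antibody cevostamab, read 4.06, 4.20 and 4.06 in irradiated cells and 3.94, 3.93 and 3.78 in unirradiated cells. Its groups also did not overlap, and its log2 difference of 0.22 ± 0.08 (SE) did not pass (limma adjusted p 0.0829). In all, the groups stood apart for 7 of the 10 genes, where they did so for 34.7% of all genes.

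**Figure D2:**
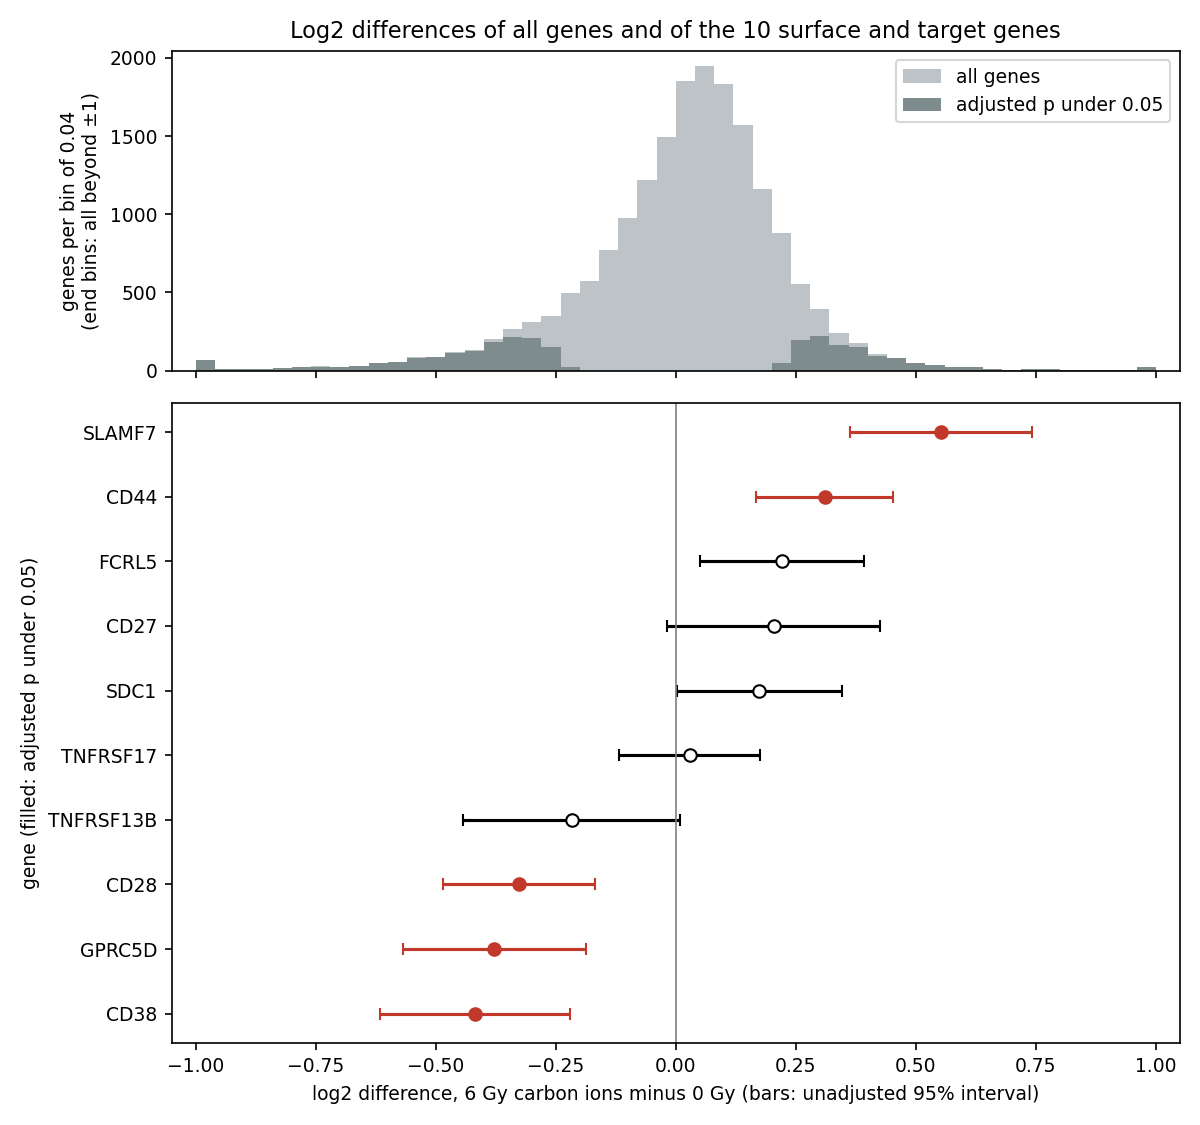
Top, number of genes by log2 difference (6 Gy carbon ions minus 0 Gy) for all 18417 genes and for those with a limma adjusted p under 0.05; bottom, the difference of each surface and target gene with its unadjusted 95% interval over 3 arrays a group. SLAMF7 lies at the right edge with 0.55, and CD38 (-0.42), GPRC5D (-0.38) and CD28 (-0.33) lie at the left; filled points passed the test.

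Across arrays, the 3 genes that fell shared their lowest array: irradiated replicate 1 gave the lowest value of CD38, GPRC5D and CD28. Unirradiated replicate 2 gave the highest value of CD38, GPRC5D and TNFRSF13B, and CD28 was highest in unirradiated replicate 3. Without unirradiated replicate 2, the genes that passed were SLAMF7 and CD44 alone, 2 of 10, while 7.99% of all genes passed. Without irradiated replicate 1, 3 of 10 passed (CD38, SLAMF7 and CD44), while 10.2% of all genes passed. The count was 5 of 10 beside 10.4% of all genes with the sample number as a block, 4 of 7 beside 25.9% with the dimmest genes left out, and 1 of 10 beside 5.85% at an adjusted p under 0.01.

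The 10 genes lay at very different signal levels, which bears on how their values can be read. The table gives no detection calls. Genes of olfactory receptors, which work in the nose and are not expected to be transcribed in plasma cells, were therefore used to describe the dim end of the scale. The 95th percentile of 341 such genes lay between 4.95 and 5.28 on the irradiated arrays and between 4.96 and 5.00 on the unirradiated arrays. CD38, SDC1, TNFRSF17, TNFRSF13B, GPRC5D, CD28 and CD44 stood far above it on all 6 arrays, with means between 8.93 and 11.31 in both groups. SLAMF7 exceeded it on 2 of 3 irradiated arrays and on 0 of 3 unirradiated arrays. CD27 exceeded it on 2 irradiated and 3 unirradiated arrays, and FCRL5 on 0 of 6. Probe sets differ in how brightly they report the same amount of RNA, so whether SLAMF7 and FCRL5 were transcribed in the unirradiated cells cannot be read from these levels.

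Dim genes as a whole were slightly higher on the irradiated arrays. The median log2 difference was 0.07 over the 6139 dimmest genes, which include SLAMF7, FCRL5 and CD27, and 0.07 over the olfactory receptor genes. Single olfactory receptor genes ran from -0.21 to 0.53, so the highest of them came close to the 0.55 of SLAMF7. The median was -0.02 over the 6139 brightest genes, which include the 7 others. Among the dimmest genes, 2.59% passed in the higher direction, and 12 of the 341 olfactory receptor genes did so. Among the brightest genes, 22.3% passed in either direction, beside 4 of 7 surface genes at that level. With an intensity-dependent normalization (cyclic loess), chosen after seeing the data, SLAMF7 differed by 0.49 (limma adjusted p 0.00225), FCRL5 by 0.17 (0.132) and CD27 by 0.14 (0.419).

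**Figure D3:**
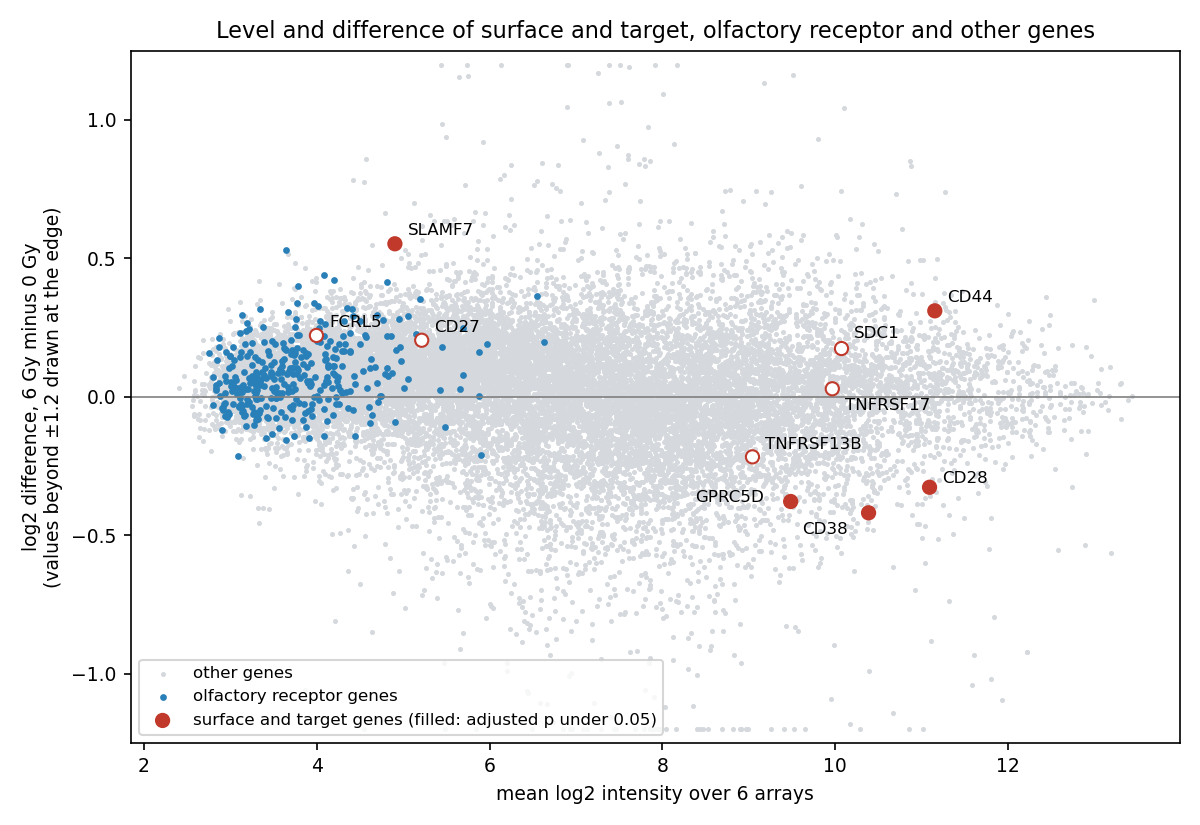
Log2 difference (6 Gy minus 0 Gy, vertical) against mean log2 intensity over 6 arrays (horizontal) for the 10 surface and target genes (red, filled where the limma adjusted p was under 0.05), 341 olfactory receptor genes (blue) and all other genes (grey). By mean level SLAMF7 lies above 93.5%, FCRL5 above 67.4% and CD27 above 96.5% of the olfactory receptor genes, and the other 7 lie above all of them.

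Most plasma cell markers were bright on the arrays, as were some B cell markers. Array medians lay between 5.66 and 5.72 at 6 Gy and between 5.64 and 5.67 at 0 Gy. Of 8 plasma cell markers, PRDM1, XBP1, IRF4, MZB1, JCHAIN and POU2AF1 had means between 10.84 and 12.99 in each group. DERL3 and FKBP11 were dimmer, with means of 8.41 and 8.79 in irradiated and 8.99 and 8.86 in unirradiated cells. Of the 8 markers, 0 were higher and 2 were lower after irradiation, where 14.5% of all genes and 22.3% of the 6139 brightest genes passed. DERL3, a part of the pathway that removes misfolded proteins, fell by 0.58 on the log2 scale, and the secretory transcription factor gene XBP1 fell by 0.23. With any single array left out except irradiated replicate 3, 1 of the 8 passed. The mean level of the list was 10.78 to 10.83 on irradiated and 10.93 to 10.96 on unirradiated arrays. CD28 and SLAMF7 also belong to T and NK cells. Of 8 T cell markers 1 was higher (CD5, 0.38) and 1 lower (CD4, -0.38), where 3 were higher and 1 lower at an unadjusted p under 0.05, with list means of 5.66 to 5.79 on irradiated and 5.51 to 5.63 on unirradiated arrays. Of 8 NK cell markers 0 passed limma (1 at an unadjusted p under 0.05), with list means of 4.49 to 4.65 on irradiated and 4.38 to 4.51 on unirradiated arrays. The T cell receptor complex genes CD3D, CD3E and CD3G had means of 4.77 to 5.55 in irradiated and 4.45 to 5.42 in unirradiated cells. CD3E exceeded the 95th percentile of the olfactory receptor genes on 6 arrays, CD3D on 5 and CD3G on 0. CD3D and CD3G differed by 0.30 and 0.33, with unadjusted limma p of 0.0467 and 0.0307, and did not pass after adjustment (0.160 and 0.124). Of 7 measured B cell markers 2 were higher and 0 lower. Of 8 monocyte markers 0 passed (2 at an unadjusted p under 0.05), and of 6 stromal markers 2 were higher and 0 lower. All of these list counts stand beside the 14.5% of all genes that passed. Some B cell markers were bright: MS4A1 had means of 9.11 in irradiated and 8.57 in unirradiated cells, BLK 8.02 and 8.21, and CD79B 7.74 and 7.45. CD79A, PAX5, CD22 and FCER2 were dimmer, with means between 4.97 and 6.42. The limma calls of XBP1, CD4, CD79B and the stromal marker COL3A1 ended in 5 of the 6 fits with a single array left out. That of the stromal marker COL1A1 ended in all 6 and that of CD5 in 2 (adjusted p up to 0.117). Each of these calls also ended with the sample number as a block (limma adjusted p 0.0552 to 0.0875). The part of these markers in the results was not tested.

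The partners of the 10 genes were read from 8 lists of ligands, relatives, enzymes and adaptors, with 109 of 124 genes measured. Of the 109, 13 rose and 12 fell, and the other 84 did not pass, beside the 14.5% of all genes that passed. Their median log2 difference was 0.06. The count that passed was 15 without unirradiated replicate 2, where 7.99% of all genes passed.

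CD38 acts on NAD and binds PECAM1 on endothelial and blood cells. PECAM1 rose, with 5.62, 5.61 and 5.21 in irradiated replicates 1 to 3 and 4.95, 4.78 and 4.60 in unirradiated replicates 1 to 3. Its log2 difference was 0.70 ± 0.12 (SE; limma adjusted p 0.00541), and it was 0.32 when all probe sets of the gene were averaged. PECAM1 exceeded the 95th percentile of the olfactory receptor genes on 2 of 3 irradiated arrays and on 0 of 3 unirradiated arrays, so this difference too is one of signals with no known distance from background. ADA, which clears the adenosine that forms downstream of CD38, rose by 0.32. Of 14 measured genes of this list 2 rose and 0 fell, which is 14.3% beside the 14.5% of all genes. The list median was 0.08 (0.05 without irradiated replicate 2). The NAD-making genes NAMPT and NMNAT1 differed by 0.09 and by 0.0015 and did not pass. Neither did the adenosine-forming NT5E (-0.0082), nor ENPP1 of the same list (-0.0081).

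The ligands of CD28 went opposite ways. CD80 rose, with 5.13, 5.21 and 5.04 in irradiated cells and 4.39, 4.42 and 4.58 in unirradiated cells, so that its groups stood clearly apart. CD86 fell, with 8.69, 8.60 and 8.68 in irradiated cells and 8.92, 8.96 and 8.91 in unirradiated cells. The log2 difference was 0.66 ± 0.08 (SE) for CD80 and -0.27 ± 0.07 (SE) for CD86, with limma adjusted p of 6.95e-04 and 0.0223. CD80 exceeded the 95th percentile of the olfactory receptor genes on 2 of 3 irradiated and 0 of 3 unirradiated arrays, as SLAMF7 did, and CD86 lay well above it. Of the 9 genes of this list 2 rose and 1 fell, beside the 14.5% of all genes that passed. Without any 1 of the unirradiated arrays 1 passed in all, beside 7.99% to 9.95% of all genes. LCK, a kinase that signals from CD28 in T cells, rose by 0.26 and was past the threshold in 0 of the 3 other scalings of the arrays; its limma call also ended with any single array left out except irradiated replicate 2 (adjusted p up to 0.147). CTLA4, ICOS and ICOSLG did not pass. The limma call of CD86 ended without irradiated replicate 2 and without any 1 of the unirradiated arrays (adjusted p up to 0.0844). With the sample number as a block the calls of CD86 and LCK both ended (limma adjusted p 0.0587 and 0.0649). That of LCK also ended with another prior.

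The list around BCMA, TACI and CD27 had 1 gene higher and 2 lower of 15 measured, where 14.5% of all genes passed. The list median was -0.0085. With an array left out 1 to 3 of the 15 genes passed, where 7.99% to 11.9% of all genes did. The count was 1 without irradiated replicate 1 or without unirradiated replicate 1 or 2. The median ran from -0.02 to 0.06. CD70, the ligand of CD27, rose by 0.29, and the adaptor genes TRAF5 and TRAF1, which link such receptors to NF-kappaB, fell by 0.41 and by 0.28 on the log2 scale. TRAF5 read 6.94, 6.99 and 6.81 in irradiated cells and 7.31, 7.45 and 7.20 in unirradiated cells. The limma call of CD70 ended with any single array left out except irradiated replicate 3 (adjusted p up to 0.104) and with array medians subtracted, and that of TRAF1 without irradiated replicate 1 or unirradiated replicates 1 and 2 (up to 0.0666). TRAF1 exceeded the 95th percentile of the olfactory receptor genes on 0 of 3 irradiated and 3 of 3 unirradiated arrays. The ligand gene TNFSF13B (BAFF) differed by 0.13 and the BAFF receptor gene TNFRSF13C by 0.16, and neither passed. The 5 measured subunits of gamma-secretase, the protease that sheds BCMA from the cell surface, did not pass limma (0 at an unadjusted p under 0.05), with differences from -0.02 for PSEN2 to 0.13 for PSENEN.

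Of the 19 measured syndecan relatives and heparan sulphate genes, 4 rose and 1 fell, beside the 14.5% of all genes that passed. The list median was 0.14. Without irradiated replicate 2 or without unirradiated replicate 2, 1 rose and 0 fell, where 11.5% and 7.99% of all genes passed. With any other array left out 2 or 3 passed, where 8.6% to 11.9% of all genes did. SDC3, a relative of syndecan-1, rose by 0.39, with 6.66, 6.69 and 6.57 in irradiated cells and 6.19, 6.24 and 6.32 in unirradiated cells. MMP9, a protease that can shed syndecan-1, rose by 0.42, and SULF2, which trims sulphate groups from the chains, fell by 0.30. The limma call of MMP9 ended with any single array left out except irradiated replicate 1 (adjusted p up to 0.0900). That of SULF2 ended without irradiated replicates 1 and 2 or unirradiated replicates 1 and 2 (limma adjusted p up to 0.0939). The SULF2 call also ended with the sample number as a block (limma adjusted p 0.0601). Heparanase (HPSE), which cuts the chains, differed by 0.05 and did not pass.

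Of the 7 relatives of SLAMF7 measured, SLAMF1, CD48, LY9, CD244, CD84, SLAMF6 and SLAMF9, 0 passed limma and 0 had an unadjusted p under 0.05, with differences between 0.04 and 0.18. Whether SLAMF7 differed from them was not tested. The kinase FYN and the phosphatase PTPN6 (SHP-1), which act behind SLAM receptors, both fell. FYN read 6.19, 6.12 and 6.08 in irradiated cells and 6.75, 6.97 and 6.56 in unirradiated cells, a log2 difference of -0.63 ± 0.10 (SE; limma adjusted p 0.00327). PTPN6 fell by 0.40, a limma call that ended without unirradiated replicate 2 (adjusted p 0.0585). There 1 of the 12 genes of this list passed, beside 7.99% of all genes. With all arrays 0 of the 12 rose and 2 fell, beside the 14.5% of all genes that passed. SH2D1A, SH2D1B and INPP5D, the other signalling genes of the list, differed by -0.04, 0.13 and 0.05 and did not pass.

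Among the relatives of GPRC5D and FCRL5, 1 rose and 1 fell of 10, beside the 14.5% of all genes that passed. The list median was 0.10 (0.04 without irradiated replicate 3). GPRC5B, a relative of GPRC5D, rose, with 6.64, 6.36 and 6.69 in irradiated cells and 5.80, 6.10 and 5.40 in unirradiated cells. Its spread was wide (SD 0.18 at 6 Gy and 0.35 at 0 Gy, n = 3 each), and its log2 difference was 0.80 ± 0.16 (SE; limma adjusted p 0.00883). GPRC5A and GPRC5C did not pass. FCRLA, an Fc receptor-like protein inside B cells, fell, with 7.30, 7.34 and 7.53 in irradiated cells and 8.08, 8.14 and 7.96 in unirradiated cells. Its log2 difference was -0.67 ± 0.08 (SE; limma adjusted p 8.21e-04), and the other 6 FCRL genes measured, FCRL1, FCRL2, FCRL3, FCRL4, FCRL6 and FCRLB, did not pass.

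Around CD44, 1 of 12 measured genes passed, beside 14.5% of all genes. SPP1, encoding osteopontin, a secreted ligand of CD44, fell by 0.26. Its limma call ended with any single array left out except irradiated replicate 3 (adjusted p up to 0.115). The call also ended with the sample number as a block (limma adjusted p 0.0598). The hyaluronan synthases HAS2 and HAS3 and the cytoskeletal linkers MSN and RDX did not pass, and HMMR, another hyaluronan receptor, differed by 0.34 (limma adjusted p 0.0599).

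Other surface proteins studied as myeloma targets counted 3 higher and 4 lower of 18 measured, with a median of -0.12. In the same fit 14.5% of all genes passed, 6.35% higher and 8.18% lower. They counted 3 higher and 7 lower with array medians subtracted, where 976 of all genes were higher and 1908 lower. Without the 6139 dimmest genes they counted 3 higher and 7 lower of 16, with a median of -0.20. There 25.9% of the genes that remained passed, 1400 higher and 1778 lower. CD55, which protects cells from complement, fell by 0.60, with 9.50, 9.53 and 9.53 in irradiated cells and 10.06, 10.24 and 10.07 in unirradiated cells. ITGB7, an integrin chain that helps myeloma cells adhere in the marrow, fell by 0.55, with 12.23, 12.33 and 12.32 in irradiated cells and 12.88, 12.86 and 12.80 in unirradiated cells. MS4A1, encoding the B cell antigen CD20, rose by 0.54, with 9.10, 9.19 and 9.05 in irradiated cells and 8.67, 8.56 and 8.47 in unirradiated cells. All 3 had groups that stood apart and a limma adjusted p of 7.70e-04, 7.38e-04 and 0.00176 in that order, and all 3 calls held with each array left out. The complement regulators CD46 and CD59 differed by -0.21 and -0.01 and did not pass.

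**Figure D4:**
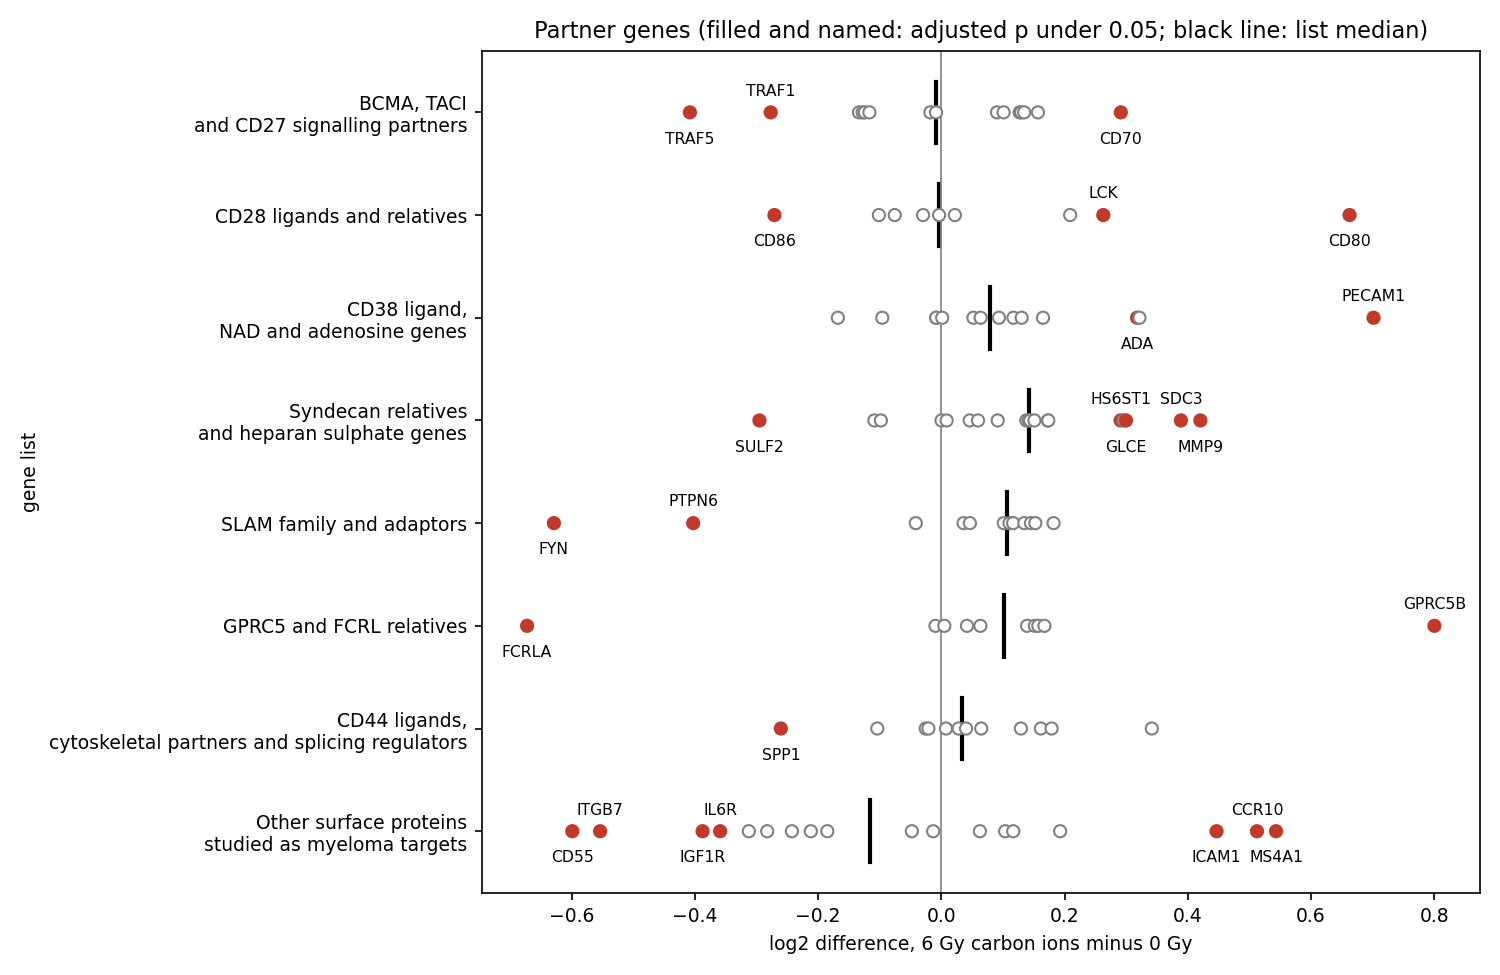
Log2 difference (6 Gy carbon ions minus 0 Gy, horizontal) of each measured gene in the 8 lists (vertical); red named points had a limma adjusted p under 0.05 and black lines are list medians. The lists run in both directions, with CD80, PECAM1 and GPRC5B furthest right and FCRLA, FYN and CD55 furthest left.

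**Figure D5:**
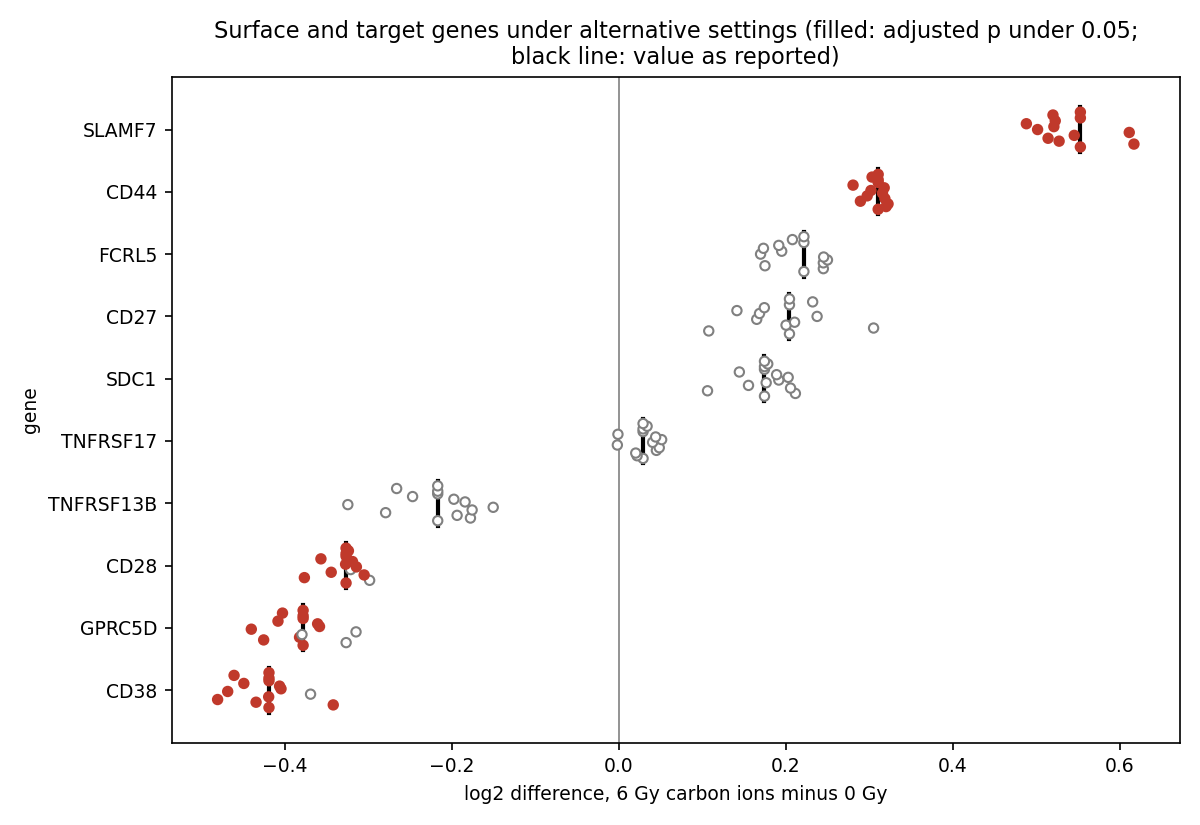
Log2 difference (6 Gy minus 0 Gy, horizontal) of each of the 10 genes (vertical) under each alternative setting; filled points had a limma adjusted p under 0.05 and black lines are the values as reported. SLAMF7 and CD44 are filled throughout, CD38, CD28 and GPRC5D have 1, 2 and 3 open points, and the points of TNFRSF17 cross 0.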

How the data were processed

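The deposited values, 33297 probe sets on each of 6 biotin-labelled 1-colour arrays (3 at 6 Gy, 3 at 0 Gy), were read as log2 intensities. Base 2 is inferred from their range. RNA was extracted with Trizol per the labels' protocols. How the authors normalized the values, corrected background and with which software: not given in the sources used here. Nearly equal array quantiles leave only relative differences readable. The number of arrays limits the precision: the median SE of a log2 difference was 0.08.

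The platform annotation gave 1 gene symbol for 19460 probe sets, of which 19429 matched RefSeq by Entrez ID; several or no symbols (1754 and 12083) were left out. The brightest probe set per gene gave 18417 genes. Groups were compared with limma 3.58.1 (lmFit, eBayes; R 4.3.3), two-sided, unfiltered, without covariates, with Benjamini-Hochberg adjustment over all genes at 0.05. Residual degrees of freedom numbered 4, with 5.85 from the prior. Exact permutation of 3 against 3 arrays cannot give a p below 0.1 and was not run.

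The surface genes and lists were chosen with earlier results of these data known. All 10 surface genes are named, and of each partner list the genes that passed, at most the 3 with the smallest p. Alternatives were a replicate block, each array left out, quantile, cyclic loess and median scaling, no dim genes, another prior, array weights, averaged probe sets and an adjusted p under 0.01.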

Additional observations from a re-analysis of the deposited data

How the results depend on the processing

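The count of surface genes that passed was 5 of 10 as reported and 2 to 5 with an array left out: 3 without irradiated replicate 1 and 2 without unirradiated replicate 2. At an adjusted p under 0.01 it was 1 (SLAMF7). Over all genes the count was 2676, and 1471 to 2184 with an array left out (1584 without unirradiated replicate 1 and 1471 without replicate 2), and 1077 at 0.01. Partner genes numbered 25, and 15 to 23 with an array left out (15 without unirradiated replicate 2), and 14 at 0.01. The sign of TNFRSF17, not called in any setting, turned to -0.0019 without unirradiated replicate 2 (its values with an array left out ran up to 0.048) and to -0.0012 with array medians subtracted. Of the 137 values of single surface genes under the alternatives, 129 kept their direction and their side of the threshold, 6 missed it and 2 changed sign. SLAMF7, FCRL5 and CD27 gave no value without the dimmest genes, where 4 of 7 passed.

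Samples of both doses share numbers in the labels. The deviations of same-numbered arrays from their group means correlated at -0.04, 0.10 and -0.11, and those of different-numbered arrays at -0.11 to 0.15. With 3 arrays a group these values cannot decide whether the numbers mark pairs. The numbers were not read as pairs in the main fit. In a fit with the replicate block, the 10 surface genes kept 5 calls, partner genes had 19 and all genes 1919. Without detection calls, dim values such as those of SLAMF7 and FCRL5 have no known distance from background.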

Other observations

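A further 6 partner genes passed the limma test and are named here after their values were seen. ICAM1, an adhesion molecule bound by leukocyte integrins, rose by 0.45, with 10.51, 10.46 and 10.60 in irradiated cells and 10.01, 10.14 and 10.08 in unirradiated cells. The chemokine receptor gene CCR10 rose by 0.51, and HS6ST1 and GLCE, enzymes that modify heparan sulphate chains, rose by 0.29 and 0.30 (limma adjusted p 0.0354 and 0.0469). The call of HS6ST1 ended with any single array left out except unirradiated replicate 1 (limma adjusted p up to 0.110). It also ended with the sample number as a block and when all probe sets of the gene were averaged. That of GLCE ended with any single array left out except irradiated replicate 3 (limma adjusted p up to 0.139), and with array medians subtracted. The growth factor receptor genes IGF1R and IL6R both fell. IGF1R read 7.57, 7.60 and 7.64 in irradiated cells and 7.99, 7.99 and 7.99 in unirradiated cells, a log2 difference of -0.39 ± 0.06 (SE; limma adjusted p 0.00374). IL6R read 9.26, 9.17 and 9.29 in irradiated cells and 9.64, 9.63 and 9.53 in unirradiated cells, a log2 difference of -0.36 ± 0.07 (SE; limma adjusted p 0.00851).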
